A study of Phaseolus vulgaris with 2 samples.

Results

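The genes described here are those of the common bean (Phaseolus vulgaris) that carry the Gene Ontology (GO) term secondary cell wall biogenesis and are not cellulose synthases. A gene was taken if its GO list held that exact term and none of the terms cellulose synthase (UDP-forming) activity, pectinesterase activity or xyloglucan:xyloglucosyl transferase activity, and the 2 xylan glucuronosyltransferase genes PGSIP1 and PGSIP3 were set aside. Of the 27197 genes of the expression table, 78 carry the term and 66 were taken. The choice used GO terms and those 2 identifiers and no expression value, but it was made with earlier results of these data known.

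RNA was sequenced from aerial tissue of wild type plants of the drought-tolerant cultivar Pinto Saltillo (PS). Drought plants, 45 days old at the start, had 2 weeks of progressive water deficit without watering, and control plants of the same age stayed under continuous irrigation. Each pool of tissue held 6 to 9 plants, RNA was combined by condition, and the table gives 1 value per gene and condition, so there are 2 libraries and no replicate check of any difference. Expression is given as FPKM, fragments scaled to the length of the transcript and to the mapped reads of the library, which allows levels to be compared between genes of different length.

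Plant cells that carry water or bear load, such as xylem vessels and fibres, deposit a secondary wall inside the primary wall once they have stopped expanding. In Arabidopsis, NAC transcription factors switch this program on. Cellulose is spun at the plasma membrane, xylan is made in the Golgi apparatus and exported, and laccases in the wall polymerize lignin. Arabinogalactan proteins of the fasciclin-like family are tethered to the outer face of the plasma membrane and are abundant in stems and fibres that are building such walls.

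Most of the 66 genes were at a low level in control and were higher under drought. The drought value was above the control value in 55 genes and below it in 9, and 2 genes were listed at 0 FPKM in both libraries. Of all genes in the table, 12845 had the higher value under drought and 11846 the lower. The median over all 66 genes was 2.49 FPKM under drought and 0.246 FPKM in control. The sum over them was 723 FPKM under drought and 434 FPKM in control. Since 1 abundant gene, Phvul.011G075000, takes a large part of both sums, the sum without it is also given, 421 FPKM under drought and 202 FPKM in control. In bulk tissue, a higher number of wall-forming cells and more of these transcripts in each such cell cannot be told apart.

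**Figure D1:**
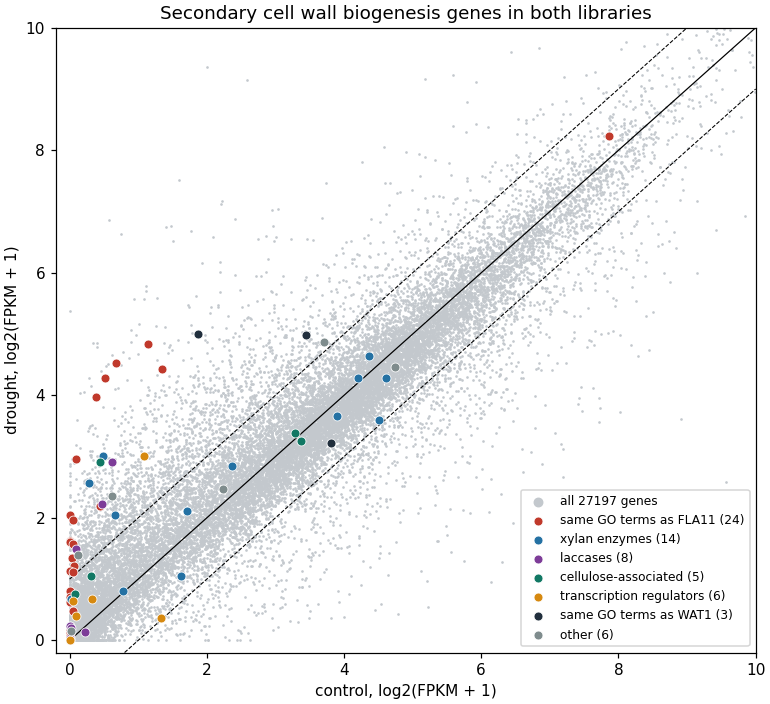
Each of the 27197 genes is a grey point, with log2(FPKM + 1) in control on the horizontal axis and under drought on the vertical axis, and the 66 genes are coloured by class. The solid line marks equal values and the dashed lines a 2-fold difference, 121 genes above 10 on either axis are not drawn, and of the coloured genes 29 with at least 1 FPKM in either library lie on or above the upper dashed line and none lies under the lower one.

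Because a gene that passes a filter only through the drought library had to be higher there, the genes were first counted by their control value alone. In control, 45 of the 66 genes were below 1 FPKM, and 24 of these reached 1 FPKM or more under drought. Over the whole table, 17.6% of the genes below 1 FPKM in control did so. The count was 20 of the 30 genes that were above 0 and below 1 FPKM in control, where the whole table gave 26.9%. It was 4 of the 15 genes listed at 0 in control, where the whole table gave 1.39%, and 13 of these 15 had a value above 0 under drought, where the whole table gave 24.4%. The remaining 21 genes had at least 1 FPKM in control. Among them 6 were at least 2-fold higher under drought, beside 8.04% of all genes with such a control value, and none was at least 2-fold lower, beside 7.19%. In the other direction, 22 of the 66 genes were below 1 FPKM under drought and 1 of these had at least 1 FPKM in control, beside 5.58% of all genes below 1 FPKM under drought.

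The log2 ratio was taken as log2(drought FPKM + 1) minus log2(control FPKM + 1), which understates the difference of genes near 0, and a 2-fold difference is a log2 ratio of at least 1 in size. At least 1 FPKM in either library was reached by 45 of the 66 genes, 20 of them in both libraries, 24 under drought alone and 1 in control alone. Of the 45, 37 were higher under drought by any amount, beside 48% of all 19661 genes that passed the same filter. Of the 45, 29 were at least 2-fold higher under drought, beside 11.7% of those genes, and 12 were at least 4-fold higher, beside 2.48%. None of the 45 was at least 2-fold lower, beside 6.6% of all genes, and none was at least 4-fold lower, beside 1.62%. This holds with 1 FPKM added, and with 0.1 or 0.01 FPKM added 1 gene, Phvul.005G044600, was at least 4-fold lower, at a log2 ratio of −2.08 or −2.38. The median log2 ratio was 1.38 over the 45 genes, 1.30 without the 4 of them listed at 0 in control, and −0.03 over all genes. These counts include the 24 genes that passed through drought alone, and over the 20 genes with at least 1 FPKM in both libraries the median log2 ratio was 0.25, beside −0.07 over all such genes.

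The genes that differed by 2-fold were mostly low in control, as those that passed through drought alone must be. The 29 genes that were at least 2-fold higher had a median of 4.10 FPKM under drought and 0.355 FPKM in control, where 23 of them did not reach 1 FPKM. The highest value among these 29 was 30.8 FPKM under drought and 12.1 FPKM in control. The 16 genes that stayed within 2-fold had a median of 9.01 FPKM under drought and 11.2 FPKM in control, and 15 of them had at least 1 FPKM in control. The 21 genes under the filter stayed below 1 FPKM in both libraries.

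**Figure D2:**
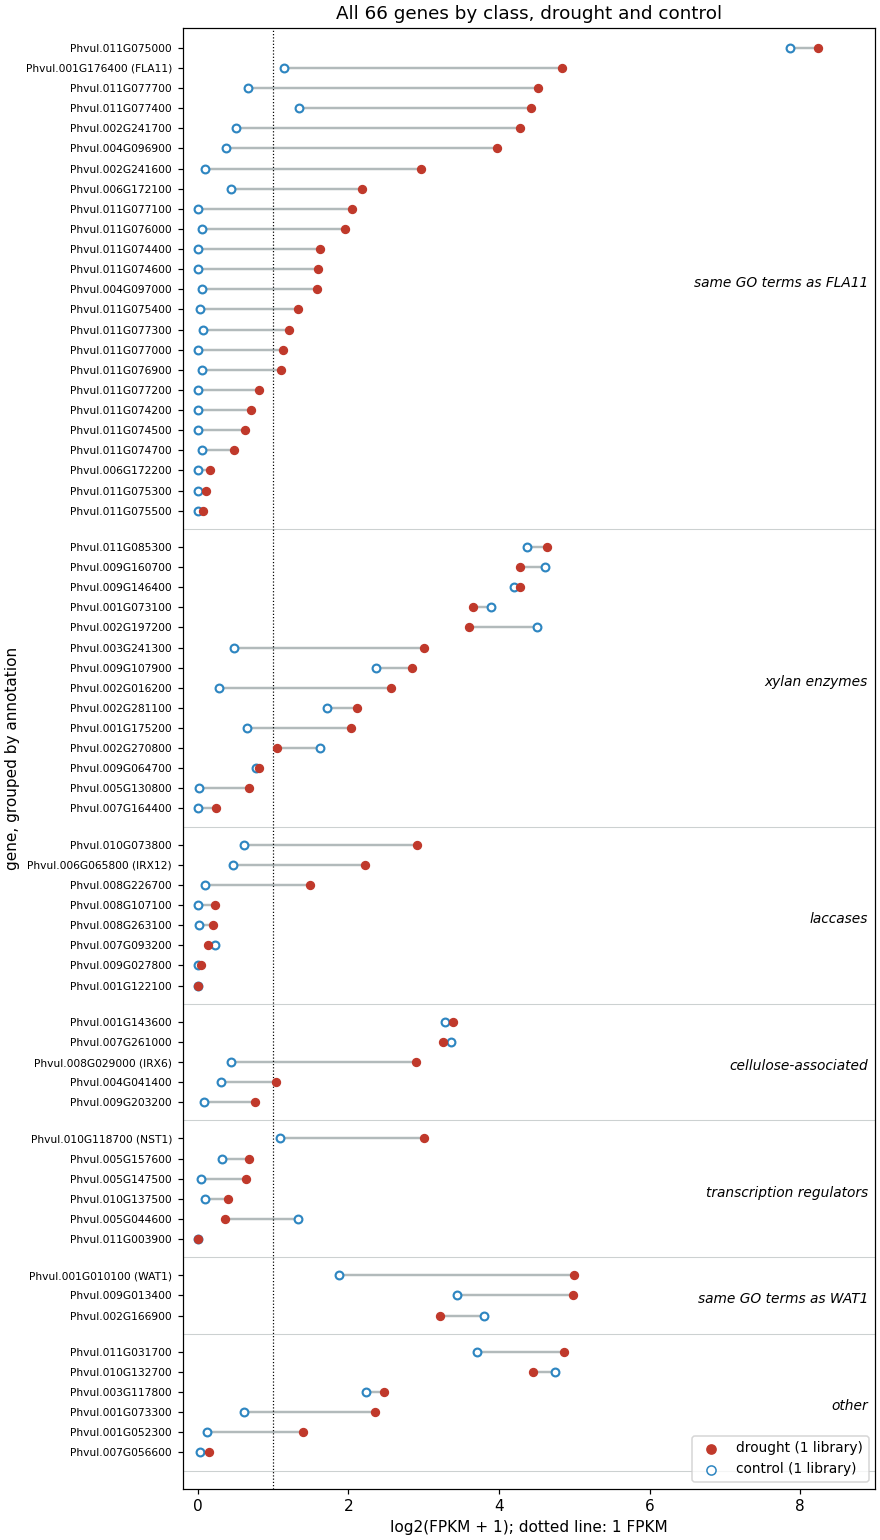
Each row is 1 of the 66 genes, grouped by annotation class, with log2(FPKM + 1) under drought as a filled point and in control as an open point, 1 library each. The dotted line marks 1 FPKM, and 55 filled points lie to the right of their open point, most of them in rows that start left of the dotted line.

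NST1 (Phvul.010G118700, chromosome 10 from 38725057 to 38727208) is the gene the study matched to a NAC factor that in Arabidopsis starts wall thickening in fibres and anthers. It had 7.03 FPKM under drought and 1.12 FPKM in control, a log2 ratio of 1.92. Under drought it was the highest of the 6 members annotated as transcription factors, and the only one with at least 1 FPKM. Positions are those of the deposited table, whose build is not settled. Symbols such as NST1 come from the study's lists of genes it called different in these same libraries, so the direction of the 5 genes with a symbol is not independent evidence.

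Phvul.005G147500, annotated with positive regulation of secondary cell wall biogenesis, had 0.556 FPKM under drought and 0.0344 FPKM in control. Phvul.005G157600 had 0.598 FPKM under drought and 0.248 FPKM in control, and Phvul.010G137500, which has the same GO terms with anther dehiscence and response to gibberellin, had 0.319 FPKM under drought and 0.0666 FPKM in control. All of these regulators stayed below 1 FPKM in both libraries. Phvul.011G003900 and Phvul.005G044600 also carry the term root cap development. Phvul.011G003900 was listed at 0 in both libraries. Phvul.005G044600 had 0.286 FPKM under drought and 1.53 FPKM in control, a log2 ratio of −0.97, and was the only member that passed the filter through control alone. It also had the lowest log2 ratio of the 45 genes.

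The largest class was made of 24 genes with exactly the GO terms of FLA11, namely plasma membrane, anchored to membrane and secondary cell wall biogenesis. FLA11 is a fasciclin-like arabinogalactan protein of Arabidopsis, and the other genes are described here by their shared terms, since no product name was used for them. All 24 had a higher value under drought, 7 of them while below 1 FPKM in both libraries. In control 10 of the 24 were listed at 0, so these could not be lower under drought. All 10 had a value above 0 under drought, beside 24.4% of all genes listed at 0 in control. Of the 17 that passed the filter, 14 through drought alone, 16 were at least 2-fold higher, beside 11.7% of all genes. At least 4-fold higher were 7, beside 2.48%, and the median log2 ratio of the 17 was 1.75. By their control value alone, 21 of the 24 were below 1 FPKM and 14 of these reached 1 FPKM under drought, beside 17.6% of all such genes.

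FLA11 (Phvul.001G176400, chromosome 1 from 43979745 to 43981143) had 27.6 FPKM under drought and 1.21 FPKM in control, a log2 ratio of 3.69. Phvul.002G241700, on chromosome 2 from 40851245 to 40852546, had 18.4 FPKM under drought and 0.426 FPKM in control, a log2 ratio of 3.77. Phvul.004G096900, on chromosome 4 from 27559233 to 27560438, had 14.7 FPKM under drought and 0.303 FPKM in control, a log2 ratio of 3.59. These genes were thus all above 10 FPKM under drought and near or below 1 FPKM in control.

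Several genes of the class lie beside a second gene with the same terms, and in each such pair outside chromosome 11 both genes were higher under drought but at unequal levels. Next to Phvul.002G241700, Phvul.002G241600 had 6.83 FPKM under drought and 0.0672 FPKM in control. Next to Phvul.004G096900, Phvul.004G097000 had 1.99 FPKM under drought and 0.0384 FPKM in control. On chromosome 6, Phvul.006G172100 had 3.55 FPKM under drought and 0.355 FPKM in control, while its neighbour Phvul.006G172200 had 0.121 FPKM under drought and was listed at 0 in control. Over the 7 genes of the class outside chromosome 11, the sum was 73.2 FPKM under drought and 2.40 FPKM in control.

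The other 17 genes of the class form an array on chromosome 11 from 6770829 to 7190436, a stretch of 420 kb that also holds 19 genes without the term. All 17 were higher under drought, and 15 were below 1 FPKM in control. Of these 15, 9 were listed at 0 in control and so could not be lower under drought. Under drought 11 of the 17 reached at least 1 FPKM. Of the 19 genes between them, 13 passed the filter, and their median log2 ratio was −0.11, beside −0.03 over all genes. None of the 13 was at least 2-fold higher under drought, beside 11.7% of all genes. The only one at least 2-fold lower, beside 6.6% of all genes, was Phvul.011G077600, with 0.559 FPKM under drought and 3.52 FPKM in control. With 13 genes, these counts are near the shares of all genes.

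**Figure D3:**
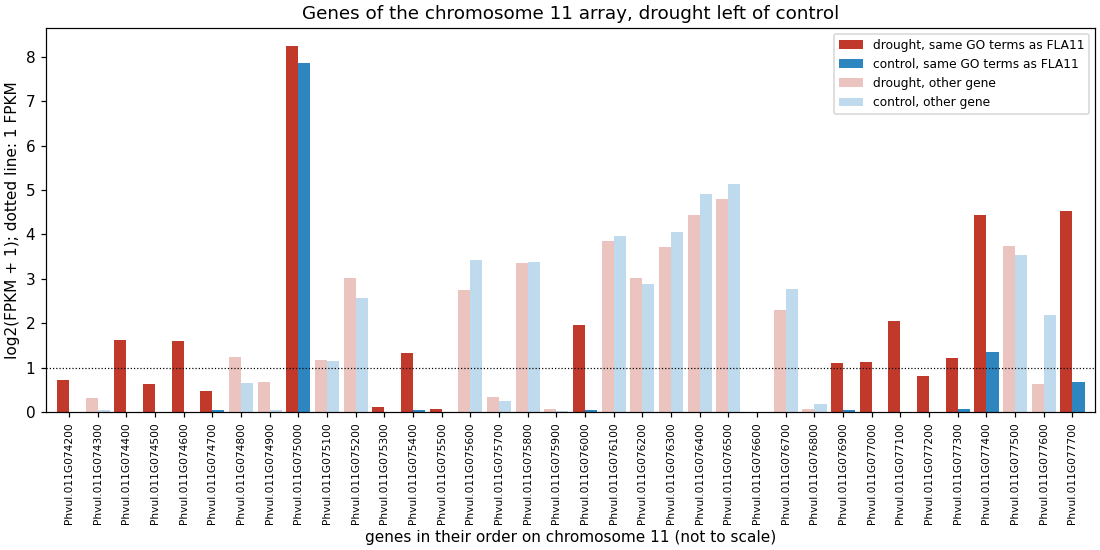
The bars give log2(FPKM + 1) under drought (red, left) and in control (blue, right) for the 36 genes of the chromosome 11 array in their order on the chromosome, in full colour for the 17 genes with the GO terms of FLA11 and pale for the 19 others. The red bar is the higher one in all 17 full-coloured genes, and for 9 of them no blue bar is seen because control is listed at 0.

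Within the array the genes were very unequal. Phvul.011G075000, from 6848513 to 6849186, had 301 FPKM under drought and 232 FPKM in control, a log2 ratio of 0.38, and was by far the most abundant of the 66 genes. It ranked 344th of the 27197 genes under drought and 518th in control, and it was the only gene of the class that passed the filter and stayed within 2-fold. It made up 83.3% of the summed FPKM of the array under drought and 99.0% in control.

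Without that gene, the array summed to 60.4 FPKM under drought and 2.32 FPKM in control. Phvul.011G077700, at the far end of the array, had 22.0 FPKM under drought and 0.595 FPKM in control, a log2 ratio of 3.85, the largest of the 66 genes on the scale with 1 FPKM added. Phvul.011G077400 had 20.5 FPKM under drought and 1.54 FPKM in control, a log2 ratio of 3.09. These 2 genes gave 70.5% of the drought sum of the array without Phvul.011G075000. Phvul.011G077400 shares its locus in the table with Phvul.011G077300, which had 1.31 FPKM under drought and 0.0461 FPKM in control, and reads may have been divided between them.

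The 4 members listed at 0 in control that reached 1 FPKM under drought all lie in this array. Phvul.011G077100 had 3.15 FPKM under drought, Phvul.011G074400 had 2.09 FPKM and Phvul.011G074600 had 2.04 FPKM, and each was listed at 0 in control. Phvul.011G077000 had 1.19 FPKM under drought and was also listed at 0 in control. These genes lie within a few kb of each other in 2 groups near the ends of the array, and no fold is given for them.

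Phvul.011G076000 had 2.89 FPKM under drought and 0.0372 FPKM in control. Phvul.011G075400 had 1.53 FPKM under drought and 0.0248 FPKM in control, and Phvul.011G076900 had 1.16 FPKM under drought and 0.0394 FPKM in control. The other 6 genes of the array ran from 0.0521 to 0.753 FPKM under drought, and 5 of them were listed at 0 in control. Neighbouring genes of 1 family can be near-identical copies among which short reads are split, and how alike these genes are was not measured.

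WAT1 (Phvul.001G010100, chromosome 1 from 908098 to 912158) encodes in Arabidopsis a vacuolar auxin transporter needed for thick fibre walls. It had 30.8 FPKM under drought and 2.66 FPKM in control, a log2 ratio of 3.12, and was among the few members that were both at 1 FPKM or more in control and at least 4-fold higher. Phvul.009G013400, with the same GO terms, had 30.7 FPKM under drought and 9.93 FPKM in control, a log2 ratio of 1.54. The third gene with these terms, Phvul.002G166900, had 8.33 FPKM under drought and 13.0 FPKM in control, a log2 ratio of −0.58. The 3 genes therefore did not share a direction, although WAT1 and Phvul.009G013400 stood at almost the same level under drought. Phvul.009G013400 shares its locus in the table with another gene.

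IRX6 (Phvul.008G029000, chromosome 8 from 2406210 to 2408577) is a COBRA-like gene, in Arabidopsis needed for cellulose deposition in the secondary wall. Its values were 6.49 FPKM under drought and 0.356 FPKM in control. The genes with the same GO terms were lower, with 1.06 FPKM under drought and 0.245 FPKM in control for Phvul.004G041400, and 0.691 FPKM under drought and 0.0574 FPKM in control for Phvul.009G203200. All of the IRX6 list were below 1 FPKM in control and had a higher value under drought. In contrast, the pair annotated with both cellulose and pectin biosynthetic process stayed close to their control level. Phvul.001G143600 had 9.48 FPKM under drought and 8.77 FPKM in control, and Phvul.007G261000 had 8.54 FPKM under drought and 9.34 FPKM in control.

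The enzymes of xylan, the main hemicellulose of secondary walls in dicots, formed a class of 14 members annotated to the Golgi apparatus. Phvul.002G197200 was placed there by its O-acetyltransferase activity and carries no xylan term. Their sum hardly differed, at 111 FPKM under drought and 107 FPKM in control. None of the 8 with at least 1 FPKM in control differed by 2-fold in either direction. Of all genes with such a control value, 8.04% were at least 2-fold higher and 7.19% at least 2-fold lower, so 0 of 8 is near those shares. Of the 6 below 1 FPKM in control, 3 reached 1 FPKM under drought, beside 17.6% of all such genes. These were the 3 of the class that were at least 2-fold higher.

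Phvul.003G241300, on chromosome 3 from 46433193 to 46434140, had 7.03 FPKM under drought and 0.397 FPKM in control, a log2 ratio of 2.52. Phvul.002G016200, on chromosome 2 from 1783762 to 1785046, had 4.91 FPKM under drought and 0.211 FPKM in control, a log2 ratio of 2.29. These genes share 1 GO list, with xylan biosynthetic process and glucuronoxylan metabolic process but no enzyme activity, and both were at least 4-fold higher. Phvul.001G175200, annotated with xylosyltransferase activity, had 3.12 FPKM under drought and 0.578 FPKM in control. Phvul.007G164400, with the same terms, had 0.180 FPKM under drought and was listed at 0 in control.

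The abundant xylan genes were at similar levels in both libraries. Phvul.011G085300, a glucuronosyltransferase gene by its terms, had 24.0 FPKM under drought and 19.7 FPKM in control, while Phvul.005G130800, with the same terms, had 0.605 FPKM under drought and 0.0122 FPKM in control. Phvul.009G146400, a xylosyltransferase gene by its terms, had 18.5 FPKM under drought and 17.4 FPKM in control, and Phvul.009G107900 with the same terms had 6.19 FPKM under drought and 4.15 FPKM in control. The gene that was lower in control had the larger log2 ratio in both of these pairs, at 0.66 against 0.27 and at 0.48 against 0.08. With 1 FPKM added this did not hold in each pair of the class. Phvul.002G016200, lower in control than Phvul.003G241300, then had the smaller log2 ratio, 2.29 against 2.52. The order of that pair depended on the FPKM added. With 0.1 FPKM added Phvul.002G016200 had the larger log2 ratio, 4.01 against 3.84.

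Genes annotated with glucuronoxylan glucuronosyltransferase activity, which places glucuronic acid side groups on xylan, went both ways. Phvul.009G160700 had 18.5 FPKM under drought and 23.5 FPKM in control, and Phvul.002G281100 had 3.33 FPKM under drought and 2.28 FPKM in control. Phvul.002G270800 had 1.08 FPKM under drought and 2.07 FPKM in control, a log2 ratio of −0.56, and Phvul.009G064700 had 0.757 FPKM under drought and 0.713 FPKM in control. All of them stayed within 2-fold.

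Phvul.001G073100, with glucuronosyltransferase activity, had 11.6 FPKM under drought and 13.9 FPKM in control. Phvul.002G197200, annotated with O-acetyltransferase activity, had 11.1 FPKM under drought and 21.7 FPKM in control, a log2 ratio of −0.90. It carries no xylan term, had the lowest log2 ratio of the class it was placed in and stayed just inside the 2-fold limit.

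The 8 laccases share the GO list of IRX12, with hydroquinone:oxygen oxidoreductase activity, copper ion binding and apoplast. All 8 were below 1 FPKM in control, and their sum was 12.5 FPKM under drought and 1.17 FPKM in control. Phvul.010G073800, on chromosome 10 from 22750279 to 22754469, had 6.53 FPKM under drought and 0.538 FPKM in control, a log2 ratio of 2.29. IRX12 (Phvul.006G065800), in Arabidopsis a laccase of xylem lignification, had 3.66 FPKM under drought and 0.381 FPKM in control. Phvul.008G226700 had 1.82 FPKM under drought and 0.0713 FPKM in control. These 3 were the laccases that passed the filter, all through drought alone.

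The other laccases remained below 0.2 FPKM. Phvul.008G107100 and Phvul.009G027800 had 0.172 and 0.0317 FPKM under drought and were listed at 0 in control. Phvul.008G263100 had 0.153 FPKM under drought and 0.0120 FPKM in control, and Phvul.007G093200 had 0.0954 FPKM under drought and 0.171 FPKM in control. Phvul.001G122100 was listed at 0 in both libraries. The table holds 21 further genes with the same enzyme activity but without the secondary wall term. Among the 9 of these that passed the filter, 4 were at least 2-fold higher, beside 11.7% of all genes, and 2 at least 2-fold lower, beside 6.6%. However, 5 of the 9 passed through drought alone. Of the 4 with at least 1 FPKM in control, 1 was at least 2-fold higher and 2 were at least 2-fold lower. Of all genes with such a control value, 8.04% were higher and 7.19% lower by that limit. The sum over the 21 genes was 37.3 FPKM under drought and 98.1 FPKM in control, the opposite order to that of the 8 laccases described here. Most of that control sum came from Phvul.010G005900, with 8.51 FPKM under drought and 64.3 FPKM in control, and without it the sum was 28.8 FPKM under drought and 33.8 FPKM in control.

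Of the 6 remaining members, Phvul.011G031700 was the most abundant, with 28.2 FPKM under drought and 12.1 FPKM in control, a log2 ratio of 1.15. Its GO list includes brassinosteroid biosynthetic process and calmodulin binding. Phvul.001G073300 had 4.10 FPKM under drought and 0.531 FPKM in control, and Phvul.001G052300 had 1.63 FPKM under drought and 0.0929 FPKM in control. Both are annotated to the nucleus and carry no term for a molecular role. Phvul.001G073300 lies within 50 kb of the xylan gene Phvul.001G073100, which was slightly lower under drought.

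Phvul.010G132700, annotated with nonsense-mediated decay, had 20.9 FPKM under drought and 25.9 FPKM in control. Phvul.003G117800, annotated with response to abscisic acid, the hormone of water deficit, had 4.53 FPKM under drought and 3.72 FPKM in control. Phvul.007G056600, with primary amine oxidase activity, had 0.107 FPKM under drought and 0.0185 FPKM in control. The first and second of these stayed within 2-fold, and Phvul.007G056600 was under the filter in both libraries.

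By position, 20 of the 66 genes lie on chromosome 11, and the other chromosomes hold 2 to 8 each. There are 17 pairs of neighbouring members within 50 kb, which involve 24 genes, and 22 of these genes have the GO terms of FLA11. Leaving the FLA11 list out, 42 members remained, of which 28 passed the filter, with a median log2 ratio of 0.60. Of the 28, 13 were at least 2-fold higher, beside 11.7% of all genes, and none was at least 2-fold lower, beside 6.6%. By control value alone, 10 of the 24 genes outside the FLA11 list that were below 1 FPKM in control reached 1 FPKM under drought. Over the whole table the share was 17.6%. Of the 18 with at least 1 FPKM in control, 4 were at least 2-fold higher, beside 8.04% of all genes with such a control value.

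The members were set beside other genes of the wall pathway, with the 66 genes removed from each set. These sets can share genes with each other, as the cellulose synthases that were set aside are counted in more than 1 set. Their shares are therefore not independent. Among genes with at least 1 FPKM in either library, the share at least 2-fold higher was 64.4% for the 66 genes, but 24 of the 45 counted there passed through drought alone. Higher shares were those of the genes with the term that were set aside, 100% of 10, and of glucuronoxylan biosynthetic process, 87.5% of 8. Most genes of these small sets also passed through drought alone. The share was 46.9% of 32 for cellulose synthase (UDP-forming) activity, 37.0% of 127 for plant-type cell wall biogenesis and 36.7% of 147 for anchored to membrane. It was 34.2% of 73 for xylem development and 33.3% of 60 for cell wall biogenesis. The lowest of these shares were 23.4% of 167 for xylan biosynthetic process, 18.0% of 50 for lignin biosynthetic process and 16.1% of 124 for cellulose biosynthetic process.

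Counted only over genes with at least 1 FPKM in control, the share of the members was above that of some of these sets and below that of others. At least 2-fold higher were 6 of 21 members, 8 of 22 genes of cellulose synthase (UDP-forming) activity, 28 of 104 genes of plant-type cell wall biogenesis and 35 of 118 genes with the term anchored to membrane. It was 10 of 47 for cell wall biogenesis, 8 of 47 for xylem development and 7 of 46 for lignin biosynthetic process. For cellulose biosynthetic process it was 13 of 112, and for xylan biosynthetic process 13 of 133. Of all genes with such a control value, 8.04% were at least 2-fold higher. The 12 genes that carry the term but were set aside, cellulose synthases with PGSIP1 and PGSIP3, all had a higher value under drought, and several of them were named in the study's lists too. Of the 10 that passed the filter, 7 did so through drought alone, and the 3 with at least 1 FPKM in control were all at least 2-fold higher. Of the 8 genes of glucuronoxylan biosynthetic process that passed the filter, 5 did so through drought alone, and 2 of the 3 with at least 1 FPKM in control were at least 2-fold higher.

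**Figure D4:**
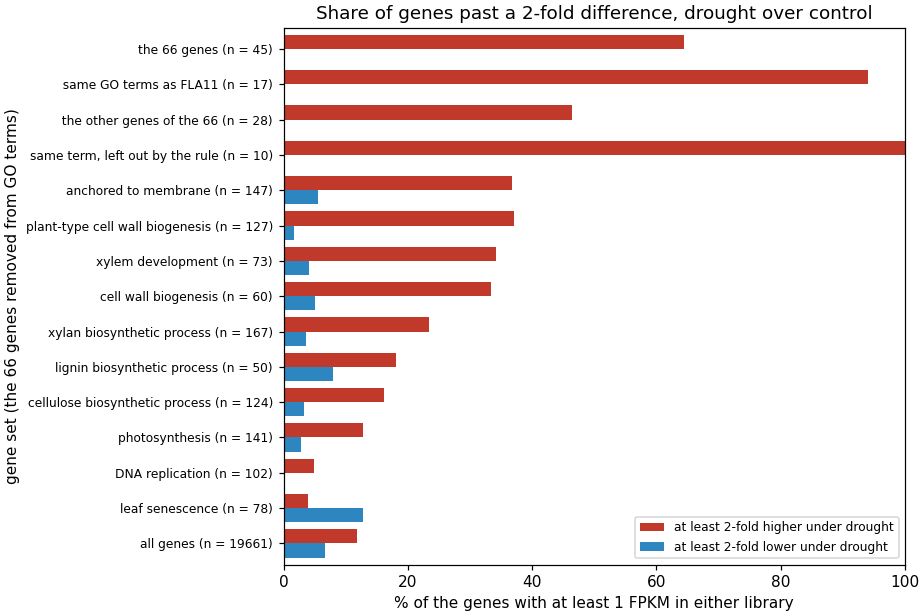
The bars give the percentage of genes at least 2-fold higher (red) and at least 2-fold lower (blue) under drought, among the genes of each set with at least 1 FPKM in either library (n). The red bar is 64.4% for the 66 genes, 94.1% for those with the GO terms of FLA11 and 11.7% for all genes. The blue bar is missing for the 66 genes, of whose 45 counted genes 24 passed through drought alone. Of the 17 counted genes with the GO terms of FLA11, 14 passed through drought alone.

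The pools were not sorted by cell type, and markers of other tissues and states were read from GO terms of the same table. Photosynthesis genes marked the aerial tissue, with a sum over 149 genes of 47616 FPKM under drought and 35069 FPKM in control, and only 5 of them were listed at 0 in both libraries. Their median log2 ratio was 0.33. Genes of DNA replication had a median of −0.04 and those of cytokinesis 0.09. Genes of leaf senescence had a median of −0.15, cutin genes −0.16 and wax genes −0.48, and the wax genes summed to 394 FPKM under drought and 984 FPKM in control. Genes of xylem development other than the 66 had a median of 0.76 while their sum was 2286 FPKM under drought and 2566 FPKM in control, and without their most abundant gene, Phvul.002G090900, 1488 FPKM under drought and 1366 FPKM in control. The part of tissue makeup in the higher values of the secondary wall genes was not tested.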

How the data were processed

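The deposited table holds 27197 genes with 1 FPKM value per condition, which the authors made by trimming with Trimmomatic, checking with FastQC, aligning to the G19833 genome with TopHat (2 mismatches, introns of 40 to 2000 bases) and running Cufflinks, Cuffmerge and Cuffdiff. The submitters' processing notes also name CASAVA 1.8.2. The table's own fold changes, test statistics, p-values and q-values, made by the authors without replicates, were not used. The labels mention 2 libraries per treatment, while the table has 1 value per gene and condition. The read counts behind the values are not given, so the depth per value is unknown, and low FPKM values gave no whole reads back. The origin of the GO column is not given in the sources used here, and 227 GO lists end at 1024 characters, 1 of them among the 66 genes. The gene identifiers carry the suffix 1.0, the methods give annotation 2.1, and which build the positions refer to could not be settled. The start positions printed are 1 base above those of the table. Of the 66 genes, 0 matched the RefSeq gene table (P. vulgaris v2.0), and none of its coordinates was used.

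Log2 ratios used a pseudocount of 1 FPKM, and counts used genes with at least 1 FPKM in either library. With 1 library per condition no p-value was computed, so no difference has a replicate check. The counting code was tested on simulated data, which checks the code only and no difference between the libraries. Classes were set by GO terms in a fixed order, and symbols are those of the study's tables. Under a rule, 32 genes were named: those with a symbol, the 15 highest and 10 lowest log2 ratios, the 8 most abundant, and the highest, median and lowest of each class with at least 3 genes that passed the filter. Other genes were named after their values were seen. The sets anchored to membrane and further laccases were added after the values were seen. The members and lists were chosen with earlier results of these data known. Alternatives changed the pseudocount (0.1 or 0.01), the filter, the scaling, and the genes left out. Computations used Python 3.11.15, pandas 2.3.3 and NumPy 2.4.6.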

Additional observations from a re-analysis of the deposited data

How the results depend on the processing

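No paired analysis was possible because each condition has 1 library, and for the same reason no replicate could be left out. The direction of the median held under each of the alternatives tried, and its size depended on the low genes. The median log2 ratio of the 66 genes, 1.38 as reported, was 3.01 with a pseudocount of 0.1 FPKM and 3.29 with 0.01, 0.67 over all 66 genes without a filter, 0.25 over the 20 genes with at least 1 FPKM in both libraries, and 0.60 without the FLA11 list. The count at least 2-fold higher, 29 as reported, was 6 of 20 with at least 1 FPKM in both libraries (beside 8.24% of all genes), 13 of 24 with at least 5 FPKM in either library (10.1%), 19 of 34 without the chromosome 11 array (11.7%) and 13 of 28 without the FLA11 list (11.7%). The count at least 4-fold higher, 12 as reported, was 27 with a pseudocount of 0.1 (6.63% of all genes), 28 with 0.01 (7.19%), 3 of 20 with at least 1 FPKM in both libraries (1.76%) and 5 of 28 without the FLA11 list (2.44%). Pseudocounts of 0.1 and 0.01 each gave 1 gene at least 2-fold lower and 1 at least 4-fold lower, Phvul.005G044600, whose log2 ratio was then −2.08 and −2.38. The count below 1 FPKM in control that reached 1 FPKM under drought, 24 of 45 as reported, was 15 of 30 without the array and 10 of 24 without the FLA11 list. These last exclusions, a version without genes listed at 0 and thresholds of 0.5 and 2 FPKM were chosen after seeing the data. The 2 scalings moved the median of all genes to 0.06 and left the other calls within 1.5 times. Of 285 values of 31 named genes under alternatives, 283 stayed on the same side of the 2-fold limit, and the 2 that did not are those of Phvul.005G044600. Many of the 283 could not move. A change of the filter or of the genes left out cannot alter the ratio of a single gene. A smaller pseudocount can only enlarge a ratio in size. The count of 283 is therefore no measure of how stable the values are. Depth per value is unknown, so values below 1 FPKM are the least certain.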

Other observations

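Members that share a whole GO list differed in level. Within the pairs and lists of shared terms, a gene near 0 in control and higher under drought could stand beside a gene that was abundant in both libraries, as in Phvul.005G130800 and Phvul.011G085300, or in the FLA11 list around Phvul.011G075000. The 66 genes have 23 distinct GO lists. Of the 19 genes of the table with the term glucuronoxylan biosynthetic process, 10 are members. The lignin term is shared by 9 members, the 8 laccases and NST1.

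At least 10 FPKM was reached by 15 members under drought and by 9 in control.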
